A study of Mus musculus with 8 samples.

Results

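The nuclear genes of respiratory complexes II to V were compared between ischemic tibialis anterior muscle of mice fed praliciguat and of mice fed placebo chow. The members were chosen by name, with earlier results of these data known. The rule took Sdha to Sdhd, Cyc1, Cycs, and symbols that start with Uqcr, with Cox4 to Cox8 or with Atp5, without Cox4i2 and pseudogenes. This gave 47 of the 24848 genes with a row. Of the 8 RNA sequencing libraries 4 came from male Leprdb/db mice on chow with 75 ppm praliciguat, a stimulator of the nitric oxide receptor soluble guanylate cyclase, and 4 from male Leprdb/db mice on placebo chow. The db allele disables the leptin receptor, which makes these animals obese and diabetic. All of these mice had hind limb ischemia surgery, so neither uninjured muscle nor lean mice enter the comparison. The diets began on day -3 and ran for 31 days, at a level aimed at the plasma peak of 10 mg/kg/day given by mouth, and muscle was taken on day 28 after surgery. No age is given in the sources used here. No label ties each library to its own animal, so p-values measure the spread between libraries, which may be partly technical.

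Respiratory complexes sit in the inner mitochondrial membrane. Complex II passes electrons from succinate to ubiquinone, complex III passes them on to cytochrome c, and complex IV hands them to oxygen. Complexes III and IV pump protons on the way, and complex V, the ATP synthase, makes ATP from the proton flow. Skeletal muscle carries muscle isoforms of 3 small complex IV subunits, Cox6a2, Cox7a1 and Cox8b, where most other tissues use Cox6a1, Cox7a2 and Cox8a. Subunits that mitochondrial DNA encodes were not analysed here.

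The libraries held 27271020 to 31896205 expected counts with praliciguat and 21099764 to 29635817 with placebo. The 7 genes of fast glycolytic fibres summed to 111556 to 138863 TPM with praliciguat and to 106004 to 122106 TPM with placebo, so markers of the labelled muscle were present at high levels, and Ucp1, the defining gene of brown fat, had 0 to 13 counts with praliciguat and 0 to 6 with placebo. Sample titles carry numbers from 2 separate stretches, called here the lower and the upper run, with replicates 1 and 2 of each group in the lower and 3 and 4 in the upper; the labels do not say what the numbers mean. Praliciguat replicate 3 stood apart. Its 4 fibroblast genes summed to 2115 TPM and its 5 macrophage genes to 342 TPM, against 324 to 733 and 31.0 to 79.8 TPM in the other praliciguat libraries and 646 to 1104 and 44.1 to 127 TPM with placebo. Results that rest on it are given with and without it where such a fit was made. In bulk muscle, fewer cells of a type and less RNA per cell cannot be told apart.

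Subunit genes were among the most abundant transcripts, and 25 of the 47 averaged over 1000 TPM over the 8 libraries. Together they took 5.68, 6.21, 5.77 and 6.01% of all TPM in praliciguat replicates 1 to 4, against 6.55, 6.29, 6.24 and 6.13% in placebo replicates 1 to 4. The groups overlapped, since praliciguat replicate 2 lay above placebo replicate 4. By group the share was 5.92 ± 0.240% with praliciguat and 6.31 ± 0.176% with placebo (SD, n = 4). The highest level per length was that of Atp5b, the catalytic beta subunit of the ATP synthase, at 3971 ± 126 TPM with praliciguat and 3818 ± 330.3 TPM with placebo. Next came Atp5k, Cox8b and Atp5a1. A group of 10 genes averaged under 200 TPM, and 7 of these were tested: Cycs, Cox6a1, Cox8a, Cox7a2l, Atp5g2, Atp5l and Atp5s.

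**Figure D1:**
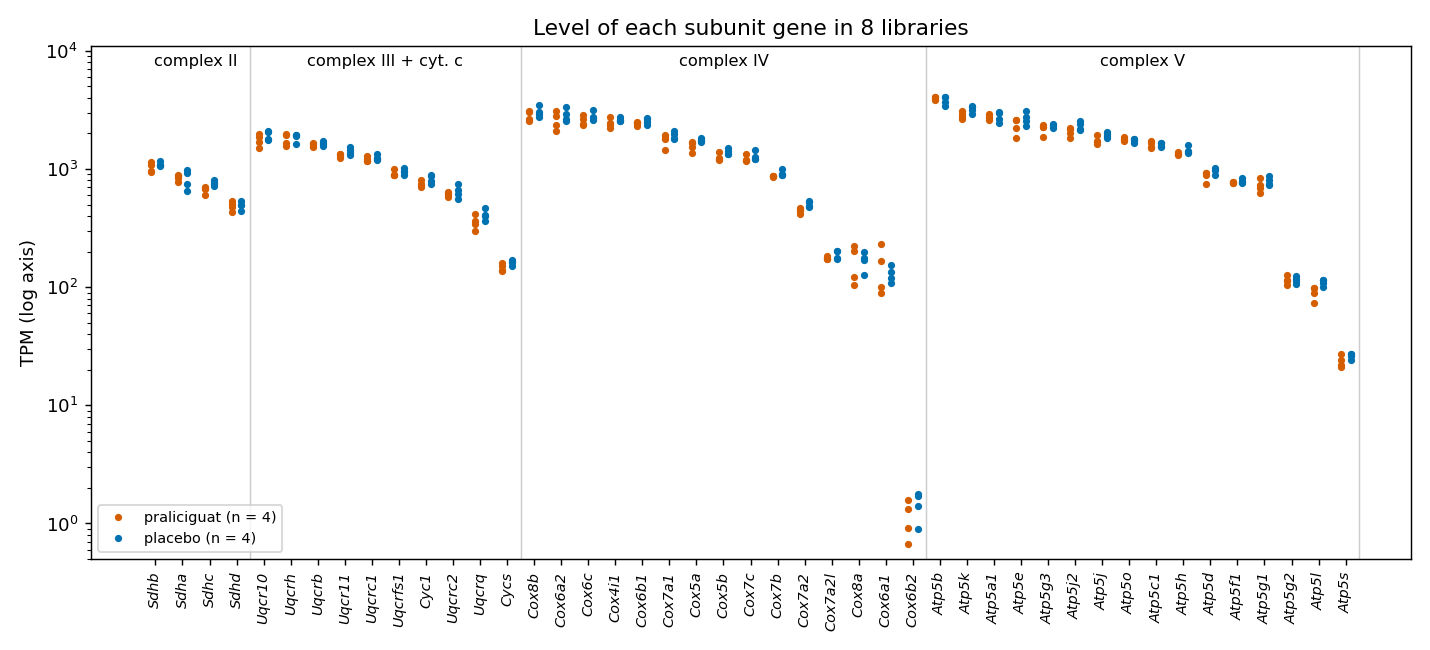
Level of each subunit gene in TPM (log axis) in the 4 praliciguat libraries (orange) and the 4 placebo libraries (blue), ordered by mean level within a complex. Cox7b2 and Cox8c are left out as they lie near 0 or at 0. Atp5b has the highest level and the ubiquitous isoforms Cox6a1 and Cox8a lie, on average, more than 10 times below Cox6a2 and Cox8b.

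Of the 47 members 44 passed the filter on low counts. The others were Cox6b2, Cox7b2 and Cox8c, complex IV isoforms known mainly from testis. Cox8c was listed at 0 in all 8 libraries and Cox6b2 had 4 to 9 counts per library with praliciguat and 5 to 10 with placebo. Cox7b2 had 2, 4, 5 and 3 counts in praliciguat replicates 1 to 4 and 0 in each placebo library. These counts lie near the 3 counts taken as the floor of detection, so no fold is given.

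None of the 44 tested subunit genes changed by edgeR's quasi-likelihood test: at the adjusted threshold of 0.05 it had 0 higher and 0 lower members (0.0% of all 13569 tested genes), and the adjusted p of the members ran from 0.859 to 0.999. DESeq2 called 0 members, where it called 0.842% of all genes lower and 0.111% higher. At an unadjusted p under 0.05 edgeR had 1 member, Atp5l, against 5.73% of all genes. In no tested member did the groups separate, where 2.54% of all tested genes had every praliciguat library below every placebo library and 1.32% had the opposite.

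The fold changes were small, and most intervals were narrow. Log2 fold changes of praliciguat over placebo ran from -0.25 for Atp5l to 0.21 for Cox6a1, and 42 of the 44 lay within 0.2 of 0. The 95% interval lay within 0.5 of 0 for 41 members and within 1 of 0, a doubling or its inverse, for all 44 tested members. For scale, 8 genes of slow fibres in the same fit had a median of -2.91 and ran from -3.75 for Myl2 to -0.31 for Myl3, although edgeR called none of them over all genes (DESeq2 called 7 lower). Myh2, the myosin heavy chain of fast oxidative fibres, lay at -1.56. The 7 genes of fast glycolytic fibres all lay above 0, from 0.060 to 0.46 with a median of 0.24, and 0 were called by edgeR or DESeq2.

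**Figure D2:**
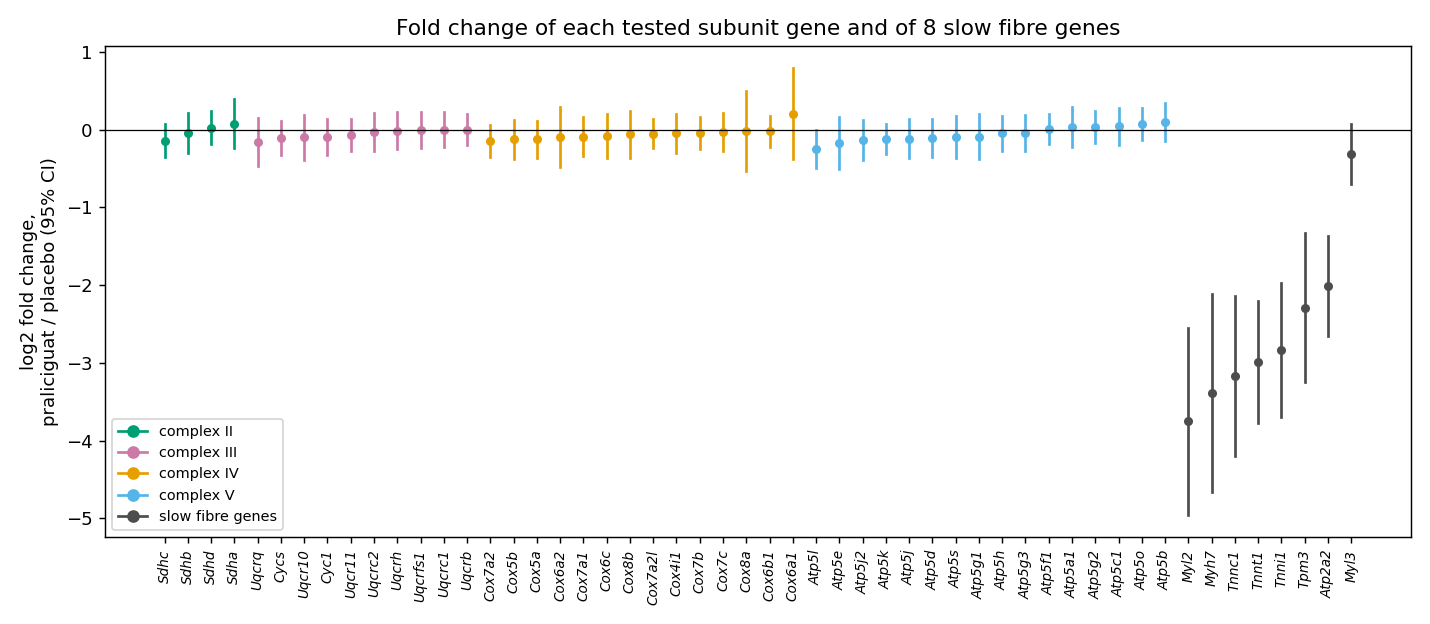
Fitted log2 fold change (praliciguat over placebo) with its 95% interval for the 44 tested subunit genes, coloured by complex, and for 8 slow fibre genes (grey). The subunit genes lie between -0.25 and 0.21, and 7 of the 8 slow fibre genes lie at -2.0 or below.

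Most subunit genes lay slightly on the lower side. A fold change below 0 was found for 34 of 44 members (77.3%), against 44.8% of all tested genes, and the median was -0.051 against 0.020 over all genes. By complex the medians were -0.011 for II, -0.051 for III with cytochrome c, -0.056 for IV and -0.071 for V. Without praliciguat replicate 3 the medians were 0.016 for II, -0.029 for III, -0.024 for IV and -0.023 for V, the member median was -0.021 and 27 members lay below 0. With any 1 library left out, II ran from -0.040 to 0.016, III from -0.091 to -0.029, IV from -0.13 without praliciguat replicate 2 to -0.0077 without placebo replicate 1, and V from -0.10 to -0.023. On TPM, 40 of 44 lay below 0 with a median of -0.097. The 44.8% and 0.020 over all genes belong to the edgeR fit and are no measure for these TPM values. The share and median of all genes on TPM are not given here. TPM is scaled per length and to a fixed sum, without the library scaling factors of the edgeR fit. Those factors were 0.935, 0.925, 1.08 and 0.997 in praliciguat replicates 1 to 4. In placebo replicates 1 to 4 they were 1.06, 0.985, 1.05 and 0.979. The part of these factors in the lower TPM median was not tested. The members' median deviation from the 8-library mean of log2 CPM was -0.047, 0.098, -0.13 and -0.0075 in praliciguat replicates 1 to 4 and 0.10, 0.073, -0.032 and -0.018 in placebo replicates 1 to 4. Praliciguat replicates 2 and 3 thus marked nearly the whole range of the 8 libraries. On this scale, which uses the scaling factors, the shift between groups was smaller than the spread within praliciguat (SD 0.094, n = 4). On the share of all TPM, which does not use them, the group means lay further apart than either SD (5.92 ± 0.240% with praliciguat, 6.31 ± 0.176% with placebo).

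**Figure D3:**
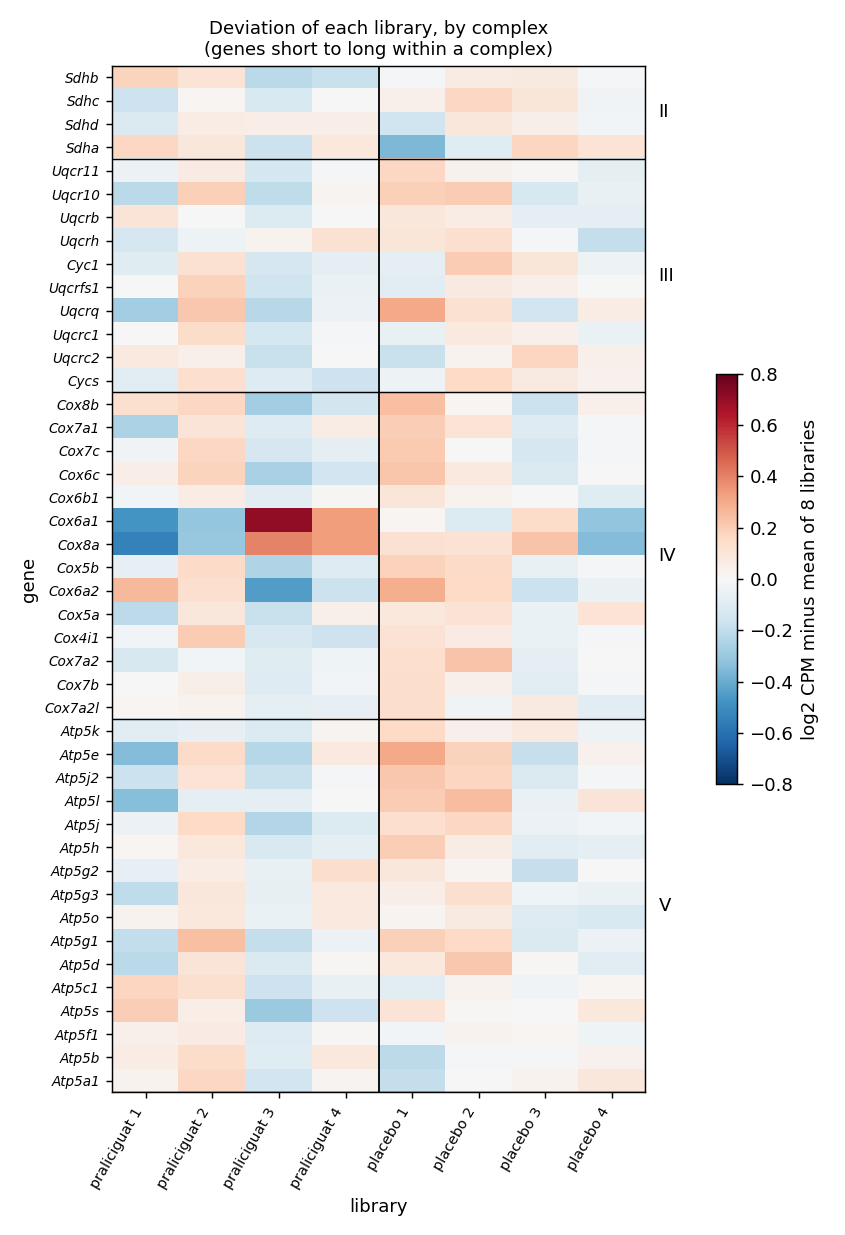
Log2 CPM of each tested subunit gene minus its mean over the 8 libraries, with praliciguat libraries left of placebo libraries and genes sorted by effective length within each complex. Praliciguat replicate 3 is low for most genes and high for Cox6a1 and Cox8a; placebo replicate 1 is high for most short genes and low for Sdha, Atp5b and Atp5a1.

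Transcript length went with part of this spread. The 22 shorter tested members (effective length 117 to 536 bases) deviated by a median of 0.17 in placebo replicate 1, where the 22 longer members (558 to 2879 bases) deviated by -0.017. Fold changes had a median of -0.077 over the shorter and -0.042 over the longer members, with 19 and 15 below 0. With effective lengths as an offset, and library scaling kept, the median over all 44 was -0.0505 and 35 lay below 0. The part of length in the sign of the fold changes was not tested further.

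Complex II holds 4 nuclear subunits and no mitochondrial one. Sdha, the flavoprotein that oxidises succinate, had 1401, 1332, 1111 and 1325 CPM in praliciguat replicates 1 to 4 and 974, 1171, 1409.9 and 1349 CPM in placebo replicates 1 to 4. The groups overlapped fully, with both extremes in placebo. The log2 fold change was 0.076 ± 0.14 (SE; 95% interval -0.24 to 0.39; edgeR adjusted p = 0.987). Sdhb, the iron-sulfur subunit and the most abundant of the 4 per length, had 607, 580.2, 462 and 476 CPM with praliciguat and 533, 562, 564 and 532 CPM with placebo. Its praliciguat libraries lay on both sides of the placebo libraries, 2 above all of them in the lower run and 2 below all of them in the upper run (log2 fold change -0.044 ± 0.11, SE; edgeR adjusted p = 0.993).

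Sdhc and Sdhd anchor complex II in the membrane and bind ubiquinone. Sdhc had 357, 405, 369 and 399.7 CPM with praliciguat and 413, 450.4, 430.0 and 393 CPM with placebo. Of the placebo libraries 3 lay above all praliciguat libraries, and the log2 fold change was -0.14 ± 0.092 (SE; 95% interval -0.35 to 0.066; edgeR adjusted p = 0.984). Sdhd had 280.0, 316, 314 and 315 CPM with praliciguat and 272, 323, 313 and 298 CPM with placebo. The praliciguat values lay within the placebo range (log2 fold change 0.022 ± 0.094, SE; edgeR adjusted p = 0.996).

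Complex III and its partner cytochrome c gave 10 tested genes with log2 fold changes from -0.16 to 0.00047, and 9 lay below 0. Uqcrc1 and Uqcrc2 form the core, Cyc1 is cytochrome c1, Uqcrfs1 the Rieske iron-sulfur protein, and Uqcrb, Uqcrh, Uqcrq, Uqcr10 and Uqcr11 are small subunits. Uqcr10 had the highest level, at 1758 ± 214 TPM with praliciguat and 1935 ± 178 TPM with placebo (SD, n = 4). It counted 233, 308, 235 and 275 CPM with praliciguat and 308, 311, 247 and 259 CPM with placebo (log2 fold change -0.098 ± 0.13, SE; edgeR adjusted p = 0.984). Praliciguat replicates 1 and 3 were the lowest of the 8. Uqcrq had the lowest fold change. It counted 236, 332, 246 and 278 CPM in praliciguat replicates 1 to 4 and 353, 312, 257 and 298 CPM in placebo replicates 1 to 4, so the groups overlapped (log2 fold change -0.16 ± 0.14, SE; 95% interval -0.47 to 0.15; edgeR adjusted p = 0.984).

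Cycs, the soluble electron carrier between complexes III and IV, was at 146 ± 10.8 TPM with praliciguat and 162 ± 8.38 TPM with placebo (SD, n = 4), with a log2 fold change of -0.11 ± 0.098 (SE). Cyc1 had -0.096 ± 0.10 and Uqcrc2 -0.033 ± 0.11. The nearest to 0 were Uqcrb at 0.00047, Uqcrc1 at -0.0021 and Uqcrfs1 at -0.010. Uqcr11 and Uqcrh lay at -0.070 and -0.015.

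Complex IV gave 14 tested genes with fold changes from -0.15 to 0.21, and 13 lay below 0. Cox5a, a subunit on the matrix side, had 412, 508, 422 and 492 CPM with praliciguat and 507, 518, 459.7 and 514 CPM with placebo. Praliciguat replicates 1 and 3 lay below all placebo libraries and the other two within their range (log2 fold change -0.12 ± 0.10, SE; edgeR adjusted p = 0.984). Cox5b, the zinc-binding subunit, had 278, 323, 246 and 270.2 CPM with praliciguat and 330.1, 322, 279 and 287 CPM with placebo (log2 fold change -0.13 ± 0.11, SE; edgeR adjusted p = 0.984). Here 3 praliciguat libraries lay below all placebo libraries, and praliciguat replicate 2 lay above 3 of them. Cox4i1, the main isoform of subunit IV, was at -0.049, and Cox6b1, Cox6c, Cox7b and Cox7c ran from -0.085 to -0.019. Cox7a2l, which links complexes III and IV into supercomplexes, lay at -0.052 ± 0.084 (SE).

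The isoforms of complex IV kept the pattern of muscle in both groups. Cox6a2 held 97.2, 96.5, 90.0 and 93.4% of the TPM of Cox6a1 and Cox6a2 in praliciguat replicates 1 to 4 and 96.1, 96.1, 94.2 and 96.1% in placebo replicates 1 to 4. Praliciguat replicates 3 and 4 lay below all placebo libraries and replicates 1 and 2 above them. The mean share was 94.3 ± 3.27% with praliciguat and 95.6 ± 0.935% with placebo (SD, n = 4; exact two-sided permutation p = 0.6, and 0.789 after adjustment over 6 isoform shares).

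Cox8b held 96.7, 96.2, 91.9 and 93.0% of the TPM of Cox8a and Cox8b with praliciguat and 95.2, 94.6, 93.3 and 96.0% with placebo, means of 94.4 ± 2.36% and 94.7 ± 1.15% (SD, n = 4; exact two-sided permutation p = 0.857, also adjusted). The order of the praliciguat libraries was that of Cox6a2, with replicates 3 and 4 lowest. Cox7a1 held 77.9, 81.0, 79.4 and 80.7% of the TPM of Cox7a1 and Cox7a2 with praliciguat and 80.2, 78.5, 79.3 and 79.0% with placebo (exact two-sided permutation p = 0.571, adjusted 0.789). Without praliciguat replicate 3 the difference in the share of Cox6a2, praliciguat minus placebo, was 0.088 percentage points, against -1.33 with all libraries, and that of Cox8b was 0.54 against -0.30.

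**Figure D4:**
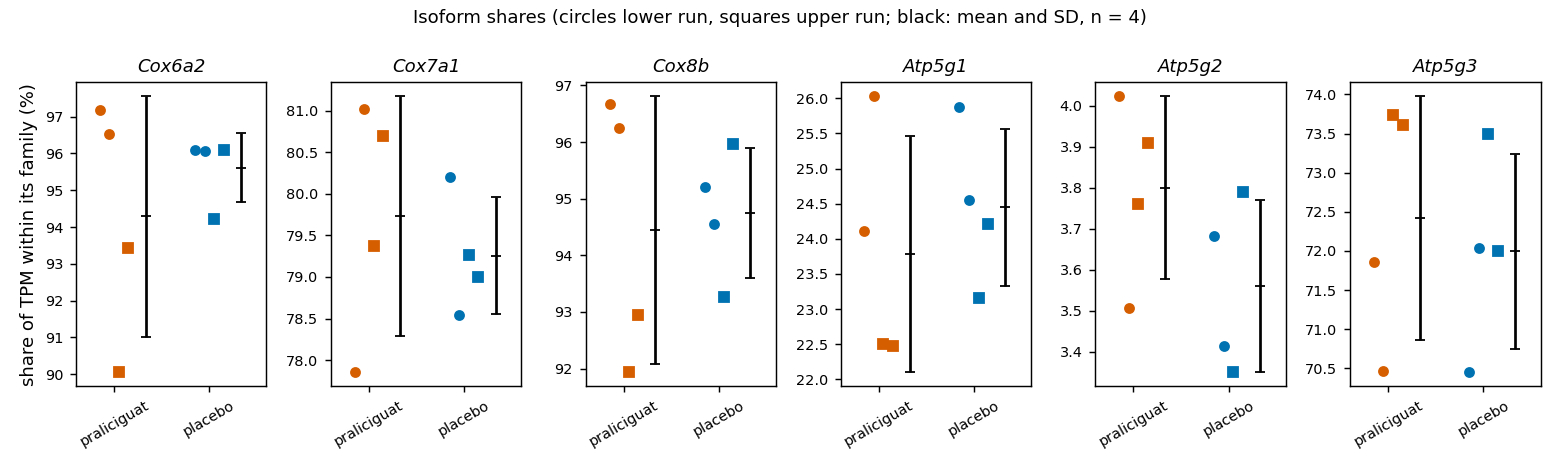
Share of TPM that each isoform gene held within its family (Cox6a1 and Cox6a2, Cox7a1 and Cox7a2, Cox8a and Cox8b, and the 3 Atp5g genes), in percent, with praliciguat left of placebo; axes do not start at 0. The shares of Cox6a2 and Cox8b are lowest in the 2 praliciguat libraries of the upper run, and the groups overlap in all 6 panels.

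The muscle isoforms themselves lay close to 0 on the fold change scale. Cox6a2, on chromosome 7 from 128205435 to 128206366, had 871, 796, 532 and 643 CPM with praliciguat and 889, 812, 645 and 698 CPM with placebo (log2 fold change -0.099 ± 0.17, SE; 95% interval -0.49 to 0.29; edgeR adjusted p = 0.986). In both groups the libraries of the upper run were the lower ones. Cox7a1 had 162, 208, 180.1 and 202 CPM with praliciguat and 222, 209, 181 and 191 CPM with placebo (log2 fold change -0.093 ± 0.11, SE; edgeR adjusted p = 0.984). Cox8b had 332, 341, 250.2 and 275 CPM with praliciguat and 359, 307, 269.8 and 313 CPM with placebo (log2 fold change -0.060 ± 0.13, SE; edgeR adjusted p = 0.991). Both genes overlapped between the groups, with the lowest library in praliciguat and the highest in placebo. Cox7a2 had 139.7, 150.3, 143 and 149 CPM with praliciguat and 167, 179, 145 and 153 CPM with placebo (log2 fold change -0.15 ± 0.093, SE; edgeR adjusted p = 0.984). Its praliciguat libraries lay close together, and of the placebo libraries replicate 3 alone lay within their range.

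The ubiquitous isoforms Cox6a1 and Cox8a varied most among the members. Cox6a1, on chromosome 5 from 115345652 to 115348958, had 18.7, 21.1, 43.4 and 33.3 CPM in praliciguat replicates 1 to 4 and 26.6, 24.4, 29.2 and 21.1 CPM in placebo replicates 1 to 4. Cox8a, on chromosome 19 from 7215158 to 7217616, had 22.4, 26.5, 43.35 and 41.5 CPM with praliciguat and 35.7, 35.6, 38.6 and 25.6 CPM with placebo. In both genes praliciguat replicates 3 and 4 lay above all placebo libraries and replicate 1 below all of them. The log2 fold changes were 0.21 ± 0.26 for Cox6a1 (SE; 95% interval -0.38 to 0.79; edgeR adjusted p = 0.984) and -0.019 ± 0.23 for Cox8a (95% interval -0.53 to 0.50; edgeR adjusted p = 0.997). Without praliciguat replicate 3 they were -0.050 and -0.17.

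Within the lower run praliciguat minus placebo was -0.35 log2 CPM for Cox6a1 and -0.54 for Cox8a, and within the upper run 0.61 and 0.42. The test of this difference, an interaction of group and run chosen after seeing the data, gave 0.97 for Cox6a1 (95% interval 0.36 to 1.57) and 0.95 for Cox8a (0.35 to 1.54), with an edgeR adjusted p of 0.196 each. It was not fitted without praliciguat replicate 3, which with replicate 4 makes up praliciguat in the upper run. The interaction test called 0 of 44 members, against 0.0147% of all genes, and 3 members at an unadjusted p under 0.05, against 16.3% of all genes. The third of these was Sdha, at 0.36 in the lower and -0.19 in the upper run. Differences had opposite signs in the 2 runs for 22 members, lay below 0 in both for 20 and above 0 in both for 2, Sdhd and Atp5o.

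**Figure D5:**
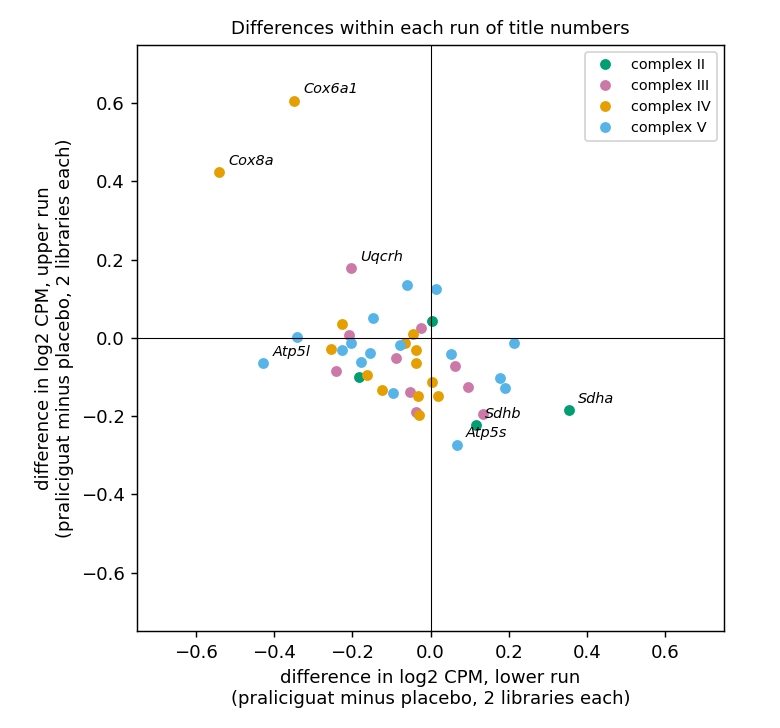
Difference in mean log2 CPM, praliciguat minus placebo, within the lower run (horizontal) and the upper run (vertical) of title numbers, 2 libraries per group in each, for the 44 tested subunit genes. Cox6a1 and Cox8a lie apart, below 0 in the lower run and above 0 in the upper run; Sdha lies on the other side, at 0.36 and -0.19.

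Genes of other cell types also varied between libraries, and not all in the order of Cox6a1 and Cox8a. The 4 fibroblast genes (Col1a1, Col3a1, Pdgfra, Dcn) summed to 519, 324, 2115 and 733 TPM in praliciguat replicates 1 to 4 and to 794, 646, 1104 and 664 TPM in placebo replicates 1 to 4. The 5 white fat genes summed to 611, 288, 1280.0 and 886 TPM with praliciguat and 225, 284, 740.0 and 194 TPM with placebo, and the 5 macrophage genes to 31.0 to 342 TPM and 44.1 to 127 TPM. Of these 14 genes 0 were called by edgeR or DESeq2 (Adgre1 had no adjusted p in DESeq2). The 5 endothelial genes summed to 231, 204, 209 and 163 TPM with praliciguat and 289, 256, 263 and 233 TPM with placebo, so these sums did not overlap. The 4 smooth muscle genes summed to 114.5 to 167 TPM and 98.45 to 334 TPM, with overlap. The 5 endothelial and the 4 smooth muscle genes all had fold changes below 0, from -0.69 to -0.047, with 0 called by either tool. The part of these cells in the levels of Cox6a1 and Cox8a was not tested.

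Promoters of Cox6a1, Cox7a1 and Cox8b are shown because the first held both cores searched, and Cox7a1 and Cox8b neither, like most members with a promoter. Cycs and Atp5k are short examples of the first core. RefSeq start sites on GRCm38.p6 gave a promoter, 250 bases before to 50 after the start, for 37 of the 47 members; Atp5a1, Cox4i1, Cox6a2, Cox6c, Cox8c, Cyc1, Sdhc, Uqcrb, Uqcrc2 and Uqcrq had none. The core of the site of NRF1, a factor known for driving genes of respiration, was searched as GCGCATGC or GCATGCGC, and the core of the ETS family, to which GABPA belongs, as CCGGAAG or CTTCCGG. Stretches before the start site are printed 5′ to 3′ on the gene's strand, with matches in capitals. GCGCATGCGC holds both forms of the first core, which overlap.
Cox6a1 (chr5:115348959-115349140, minus strand): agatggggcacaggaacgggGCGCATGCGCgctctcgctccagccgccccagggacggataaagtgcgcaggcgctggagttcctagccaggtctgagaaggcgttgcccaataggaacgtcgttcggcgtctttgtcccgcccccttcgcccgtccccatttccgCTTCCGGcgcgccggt
Cox7a1 (chr7:30184051-30184170, plus strand): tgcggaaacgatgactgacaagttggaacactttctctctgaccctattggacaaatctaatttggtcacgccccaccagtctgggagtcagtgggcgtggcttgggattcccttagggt
Cox8b (chr7:140900447-140900566, minus strand): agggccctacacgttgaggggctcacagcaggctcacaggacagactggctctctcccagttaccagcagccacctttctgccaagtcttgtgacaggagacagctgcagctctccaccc
Cycs (chr6:50566602-50566649, minus strand): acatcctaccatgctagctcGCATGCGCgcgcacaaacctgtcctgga
Atp5k (chr5:108434420-108434469, minus strand): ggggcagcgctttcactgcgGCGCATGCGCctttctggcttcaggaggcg

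The NRF1 core was in 8 of the 37 member promoters (21.6%), against 3.05% of 27025 genes with a promoter: Atp5g2, Atp5k, Atp5l, Cox6a1, Cycs, Sdhb, Uqcr11 and Uqcrc1. The ETS core was in 12 (32.4%), against 9.93%: Atp5e, Atp5h, Atp5j, Atp5k, Atp5l, Cox6a1, Cox6b1, Cox8a, Sdhb, Sdhd, Uqcr11 and Uqcrh. Both were in 5 (13.5%), against 0.618%. Cox6a1 held both and Cox8a the ETS core, across and after its start site. Neither core was in the windows of Cox7a1, Cox7a2 and Cox8b, nor in those of most other members, such as Atp5b, Cox5a and Uqcr10. The 27025 genes were not filtered by expression, whereas 44 of the 47 members passed the filter on low counts, so the shares compare unlike sets. The matches are letters in a window and were not measured as binding here.

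Complex V gave 16 tested genes from -0.25 to 0.10, with 10 below 0. Its alpha, beta and gamma subunits lay above 0. Atp5b, on chromosome 10 from 128083307 to 128090388, had 3885, 4122, 3482 and 3949 CPM with praliciguat and 3225, 3700.2, 3674 and 3808 CPM with placebo (log2 fold change 0.10 ± 0.11, SE; 95% interval -0.14 to 0.34; edgeR adjusted p = 0.984). Of the praliciguat libraries 3 lay above all placebo libraries, and replicate 3 lay below 3 of them. Atp5a1, the alpha subunit, had 3556, 3922, 3133 and 3542 CPM with praliciguat and 3062, 3503, 3560.2 and 3724 CPM with placebo (log2 fold change 0.031 ± 0.11, SE; edgeR adjusted p = 0.996). As for Atp5b, placebo replicate 1 was the lowest library and praliciguat replicate 2 the highest.

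Atp5c1, the gamma subunit of the rotor shaft, had 1006, 973, 797 and 857 CPM with praliciguat and 841, 908, 873 and 901 CPM with placebo (log2 fold change 0.044 ± 0.11, SE; edgeR adjusted p = 0.992). Its praliciguat libraries of the lower run lay above, and one of the upper run below, all placebo libraries. Atp5o, a stalk subunit, had 600.1, 623, 566 and 620.2 CPM with praliciguat and 595, 616, 547 and 539 CPM with placebo (log2 fold change 0.068 ± 0.092, SE; edgeR adjusted p = 0.984). Here 2 praliciguat libraries lay above all placebo libraries. On TPM, Atp5a1 and Atp5c1 lay just below 0, at -0.0091 and -0.0019.

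Several small subunits of complex V lay lower. Atp5l, subunit g, on chromosome 9 from 44913248 to 44920742, had 14.6, 17.7, 17.5 and 18.6 CPM with praliciguat and 21.4, 22.1, 17.9 and 19.95 CPM with placebo. The groups met only where praliciguat replicate 4 passed placebo replicate 3. Its log2 fold change was -0.25 ± 0.11 (SE; 95% interval -0.50 to -0.0051), with an unadjusted p of 0.0463 and an adjusted p of 0.859 in edgeR; adjusted p-values in the alternatives ran from 0.57 to 1. Within the lower run it differed by -0.43 and within the upper by -0.064.

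The level of Atp5l is uncertain. At 90.1 ± 11.8 TPM with praliciguat and 109.8 ± 6.70 TPM with placebo (SD, n = 4) it lay far below most other subunits. Of the 50-base stretches in its GENCODE transcript, 84.8% also occur in transcripts of 14 other annotated genes. Such sharing covered over 20% of the stretches in 10 of the 47 members, and 21 members shared none. All members had expected counts within 0.001 of a whole number in all 8 libraries.

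Atp5k, subunit e, had 187, 190.2, 185 and 202 CPM with praliciguat and 223, 204, 210.4 and 193 CPM with placebo (log2 fold change -0.12 ± 0.084, SE; edgeR adjusted p = 0.984). Placebo replicate 4 was the one placebo library within the praliciguat range. Atp5j2, subunit f, had 325, 395, 323 and 363 CPM with praliciguat and 425, 413, 338 and 362 CPM with placebo (log2 fold change -0.13 ± 0.11, SE; edgeR adjusted p = 0.984). The 2 highest libraries were placebo and the 2 lowest praliciguat. Atp5e, the epsilon subunit, lay at -0.17 ± 0.15, Atp5j at -0.11, Atp5d, the delta subunit, at -0.11, Atp5h at -0.050 and Atp5f1 at 0.0074. Atp5s, a coupling factor that is not a stoichiometric subunit, lay at -0.094.

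Subunit c, which forms the rotor ring, is made from 3 genes that encode the same mature protein with different import signals. Atp5g3 held 71.9, 70.5, 73.7 and 73.6% of their TPM in praliciguat replicates 1 to 4 and 70.4, 72.03, 73.5 and 72.003% in placebo replicates 1 to 4. Atp5g1 held 23.8 ± 1.68% with praliciguat and 24.4 ± 1.12% with placebo, and Atp5g2 3.80 ± 0.223% and 3.56 ± 0.210% (SD, n = 4). The exact two-sided permutation p was 0.657 for Atp5g3, 0.486 for Atp5g1 and 0.171 for Atp5g2, and 0.789 for each after adjustment over 6 shares. The smallest p that 4 against 4 libraries can give is 0.0286.

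In CPM the groups overlapped for each of the 3. Atp5g1 had 231, 312, 232 and 256 CPM with praliciguat and 302, 296, 245 and 257 CPM with placebo (log2 fold change -0.092 ± 0.13, SE; edgeR adjusted p = 0.984). Atp5g2, the rarest, had 28.9, 31.4, 28.9 and 33.3 CPM with praliciguat and 32.2, 30.7, 26.5 and 30.1 CPM with placebo (0.037 ± 0.091; edgeR adjusted p = 0.992; -0.0020 on TPM). Atp5g3 had 592, 726, 652 and 720.4 CPM with praliciguat and 707, 745, 666 and 656 CPM with placebo (-0.044 ± 0.10; edgeR adjusted p = 0.992).

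Lists of genes that act with these complexes were read in the same fit, and edgeR called none of their genes. Of 38 complex I subunits, the entry point for NADH electrons, 0 were called by edgeR or DESeq2, 31 lay below 0 and the median was -0.063. The list was taken by name and includes Ndufa4, now counted with complex IV, and its paralog Ndufa4l2. Ndufb7 (-0.21 ± 0.11, SE) and Ndufa4l2 (-0.31 ± 0.19; -0.46 to -0.19 with 1 library left out) had its lowest p. Of 39 tested assembly factors of complexes II to V, 0 were called, 19 lay below 0 and the median was 0.0024. Coa4, a complex IV assembly factor, averaged 4.29 ± 0.579 CPM with praliciguat and 6.37 ± 0.722 CPM with placebo (SD, n = 4). Its log2 fold change was -0.57 with an SE of 0.16 (edgeR adjusted p = 0.41). Atpaf2, which assembles the alpha subunit into complex V, averaged 30.9 ± 1.64 and 25.1 ± 1.86 CPM (0.30 ± 0.085; edgeR adjusted p = 0.454). Neither gene overlapped between the groups, in opposite directions.

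Regulators of mitochondrial biogenesis had 0 of 14 genes called, with 9 below 0 and a median of -0.015. Ppargc1a, the coactivator that drives mitochondrial genes, had 77.4, 55.3, 40.3 and 36.1 CPM in praliciguat replicates 1 to 4 and 49.5, 52.4, 61.9 and 94.8 CPM in placebo replicates 1 to 4. It lay higher with praliciguat in the lower run (0.36) and lower in the upper (-0.996), with a log2 fold change of -0.31 ± 0.28 (SE) over both. This value was -0.063 without placebo replicate 4 and -0.56 without praliciguat replicate 1. Tfb1m, a mitochondrial rRNA methyltransferase, lay at -0.16 ± 0.15, and leaving out 1 library moved it between -0.21 and -0.083.

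Of 14 genes of the tricarboxylic acid cycle edgeR called 0 and 4 lay below 0, with a median of 0.025. Idh2, the NADP-dependent isocitrate dehydrogenase of mitochondria, had 360.0, 305, 250.4 and 259.9 CPM with praliciguat and 428, 397, 429 and 457 CPM with placebo. The groups did not overlap, with a log2 fold change of -0.54 ± 0.13 (SE; edgeR adjusted p = 0.317), and DESeq2 called it lower (adjusted p = 0.0154). Idh3g, a subunit of the NAD-dependent enzyme, lay at 0.090 ± 0.10. Among 7 carriers and their partners 0 were called. Ckmt2, the mitochondrial creatine kinase of muscle, averaged 1548 ± 196 CPM with praliciguat and 1933 ± 137 CPM with placebo without overlap (log2 fold change -0.32 ± 0.12, SE; edgeR adjusted p = 0.725). Vdac1, a channel of the outer membrane, lay at 0.15 ± 0.12.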

How the data were processed

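Polyadenylated RNA of 8 muscle libraries was sequenced from a stranded mRNA kit, per the labels' protocols. The submitters' processing notes name the build mm10, RSEM 1.2.28, STAR 2.5.3a, Trimmomatic and FastQC. They give no strand setting. The authors deposited, per the file headers, RSEM's expected counts, which estimate reads per gene, TPM values, which scale them per effective length to a fixed sum per library, and the effective length as another column. Total expected counts were 21099764 to 31896205. No pair of libraries agreed within sampling noise (chi-square per degree of freedom 25.7 to 153 within groups).

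After rounding, the expected counts went into edgeR 4.0.16 under R 4.3.3 (genes filtered by filterByExpr, TMM scaling, robust quasi-likelihood F test, Benjamini-Hochberg over 13569 genes, threshold 0.05; group as the one term), after a check on simulated counts. CPM values are relative to TMM-scaled library sizes, and deviations and differences within runs use log2(CPM + 0.5). Isoform shares of TPM were compared over all 70 groupings. Replicate numbers follow accession order and pair no samples. Members and lists were chosen with earlier results of these data known. Full statistics go to the 8 members of lowest p in each direction, the isoform genes and the most abundant member of each complex; context lists name their 2 genes of lowest p, and the other members are given by value. Alternatives were other scalings and filters, DESeq2 1.42.0, limma 3.58.1 (voom, quality weights, log2(TPM + 1), log2(TPM + 0.1)), no robust estimation, a block for the run, a looser threshold of 0.1 and leaving out each library. Effective lengths as an offset and the interaction of group and run were chosen after seeing the data. RefSeq coordinates on GRCm38.p6, the assembly of mm10, matched all 47 members; 50-base stretches came from GENCODE M21 transcripts, not the authors' annotation.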

Additional observations from a re-analysis of the deposited data

Results flagged for a closer look

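In groups of 4 libraries a single far library was looked for by the gap to its nearest neighbour against the group's range, over 120 groups, where chance gives about 1 in 20. The search flagged 2, fewer than that rate gives. Sdhd in praliciguat replicate 1, at 280.0 CPM, lay below the other praliciguat libraries, which ran from 314 to 316 CPM. The share of Cox6a2 in placebo replicate 3, at 94.2%, lay below the other placebo libraries, which were all at 96.1%.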

How the results depend on the processing

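The count of 0 called members held in all alternatives, and the median over members and over each complex moved by less than the spread between libraries, though the median of complex II changed sign; the member median ran from -0.10 to -0.019 with 1 library left out, and 27 to 36 members lay below 0. Over all genes edgeR called 0, with 3 under the run as a block, 11 at an adjusted p under 0.1 and 0 to 5 with 1 library left out; DESeq2 called 129, and limma-voom 2 with and without quality weights. No paired analysis was possible because the replicate numbers follow accession order. DESeq2 called Idh2 lower at -0.54.

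Signs near 0 turned. With quality weights Sdhd was at -0.0011. On log2(TPM + 1), Atp5a1 was at -0.0091, Atp5c1 at -0.0019, Atp5g2 at -0.0020 and Sdhd at -0.016. On log2(TPM + 0.1) they were at -0.0092, -0.0019, -0.0020 and -0.016. With 1 library left out the log2 fold change ran from -0.022 to 0.088 for Atp5a1, -0.0080 to 0.10 for Atp5c1, -0.022 to 0.081 for Atp5g2, -0.083 to 0.013 for Atp5g3, -0.050 to 0.37 for Cox6a1, -0.21 to 0.017 for Cox6a2, -0.17 to 0.13 for Cox8a, -0.13 to 0.021 for Cox8b, -0.013 to 0.15 for Sdha, -0.11 to 0.020 for Sdhb and -0.018 to 0.063 for Sdhd. Differences in isoform shares, praliciguat minus placebo in percentage points, ran with 1 library left out from -2.29 to 0.088 for Cox6a2, -1.04 to 0.54 for Cox8b and -0.091 to 1.08 for Atp5g3. Within the lower run they were 0.76, 1.58 and -0.079, and within the upper run -3.41, -2.17 and 0.93, opposite in sign for each. The cause was not tested. Intervals cover the spread between 4 libraries per group, and changes under about 0.2 on the log2 scale lie inside most of them.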
